A study of Mus musculus with 2 samples.

Results

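The Zfp genes are the mouse genes named for zinc finger proteins by a number alone, such as Zfp106, and their transcripts were examined for binding by UPF1. They were taken from the RefSeq annotation of GRCm38 as protein-coding loci whose symbol is Zfp followed by digits only. Zfp36, which encodes an RNA-binding protein of another finger type, was left out, and at least 1 deposited UPF1 cluster on the strand of the locus was required. Of 366 such loci, 226 met this rule, out of 9481 protein-coding genes with a cluster on their strand. A further 10 loci had clusters but no resolved strand, and the other 130 had no cluster on their strand.

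The study used enhanced crosslinking and immunoprecipitation (eCLIP), in which RNA crosslinked to a protein is trimmed, pulled down with that protein and sequenced beside an input library. The libraries were a UPF1 immunoprecipitate labelled UPF1_MOCK and its input, labelled UPF1_MOCK_INPUT. Both came from cultured neural progenitor cells of mouse cortex with the genotype Upf2fl/fl, a loxP-flanked allele of the UPF1 partner Upf2. The labels do not explain MOCK, name no Cre driver and give neither the age of the mice nor the number of cultures. There was 1 library of each kind and therefore no replicate. No test between conditions and no p-value across genes was possible, and every difference below is a description of these 2 libraries.

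UPF1 is an RNA helicase that binds messenger RNA and is central to nonsense-mediated decay, the pathway that degrades transcripts whose translation stops early. Most Zfp genes encode C2H2 proteins, in which each finger folds around a zinc ion and several fingers in a row read DNA. Many also carry a KRAB box, which recruits the corepressor TRIM28 and, through it, histone methyltransferases and heterochromatin proteins that silence retroelements. KRAB zinc finger genes have multiplied by duplication and lie in tandem groups on several mouse chromosomes. The set named by symbol also holds proteins with BTB or SCAN domains and proteins that act on RNA or in ubiquitin ligation.

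The sequence of a bound site could be read only where a cluster reached into a RefSeq window around an annotated start site. The 30 bases shown are from the RefSeq table of GRCm38.p6, on the transcribed strand, 5′ to 3′. Capitals mark bases covered by the cluster. Zfp423 is shown because its sole enriched cluster lies there. The Zfp423 bases are chr8:87959549-87959578 on the minus strand, bases 18 to 47 counted from the annotated start, and 15 of the 30 are G or C.
Zfp423: TTTTTTTGCATAACTCGGCTCGGCCGAGTG

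The data set lists clusters, stretches of RNA in which immunoprecipitate reads piled up, each with the authors' log2 fold of immunoprecipitate over input and a −log10 p of that fold. There were 123349 clusters, and 14330 of them (11.6%) were enriched, which here requires both the log2 fold and the −log10 p to be 3 or higher. Library totals are not in the file. The steps between the values gave the reads behind 99.7% of clusters with a fold above 0 and put the immunoprecipitate at 2.03 times the depth of the input. Intervals on folds are exact 95% binomial (Clopper-Pearson) intervals from these reads, those on shares are Wilson 95% intervals, and where 0 genes were enriched the text gives instead a limit of 3 counts over the total. All cover counting error only. The cell label was checked by its markers. Of 9 progenitor markers 8 had clusters (all but Hes1), as did 4 of 5 neuronal markers (all but Tubb3) and 4 of 5 astrocyte markers (all but Aqp4), while the 6 markers of microglia, vessels and fibroblasts had none. Enriched clusters lay in 6 progenitor, 2 neuronal and 4 astrocyte markers, so these lists did not separate the 3 cell types. Whether the culture held neurons or astrocytes, and any part of theirs in the values below, was not tested. A cluster records bound RNA, so more transcript, more cells of a type and more UPF1 per transcript cannot be told apart from the clusters alone.

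Few Zfp transcripts carried enriched UPF1 clusters. An enriched cluster was found in 33 of the 226 Zfp genes (14.6%, interval 10.6 to 19.8), against 3263 of 9255 other protein-coding genes (35.3%, interval 34.3 to 36.2). Over all 9481 protein-coding genes the share called was 34.8%. The median of the highest log2 fold in a gene was 1.78 among Zfp genes and 2.56 among the others. The upper quartiles were 2.88 and 4.02. The highest values, 5.89 and 8.25, come from sets of unlike size, 226 and 9255 genes, and are not comparable. In 26 Zfp genes the highest fold was 0.56, the value of 3 immunoprecipitate reads against 1 input read, and in 11 no cluster had a fold above 0.

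**Figure D1:**
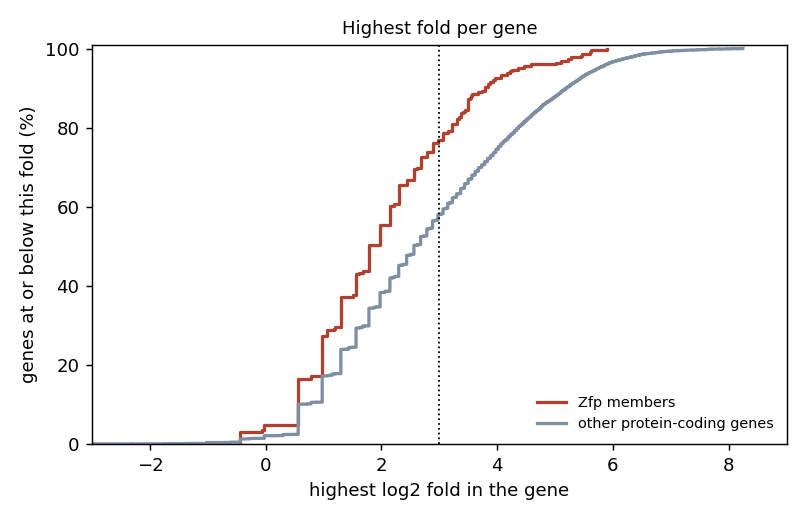
Cumulative share of genes (y axis, percent) at or below each highest log2 fold (x axis) for 226 Zfp genes and 9255 other protein-coding genes, with a dotted line at the fold threshold of 3. The Zfp curve lies to the left, with medians of 1.78 and 2.56, and ends at 5.89; other genes with a highest fold under -3 fall outside the x axis.

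Zfp genes also had fewer clusters, with a median of 3 per gene against 6 in other genes, and fewer reconstructed immunoprecipitate reads, with a median of 22.5 per gene against 52. Genes with few clusters were rarely enriched in both sets, so shares were set side by side within classes of cluster number. Of 42 Zfp genes with 1 cluster 0 were enriched, a limit of 7.14% by 3 counts over the total, against 17 of 1007 other genes (1.69%). With 2 to 3 clusters, 3 of 72 Zfp genes were enriched (4.17%), against 204 of 1888 others (10.8%). Enrichment was scarce in both sets up to this number. With 4 to 7 clusters, 9 of 56 Zfp genes were (16.1%), against 761 of 2423 others (31.4%). With 8 to 15 clusters, 11 of 33 Zfp genes were (33.3%), against 1176 of 2139 others (55.0%). With 16 or more, 10 of 23 Zfp genes were (43.5%), against 1105 of 1798 others (61.5%). The Zfp share was the lower in each of the 5 classes, though with 1 cluster its limit of 7.14% lies above the 1.69% of other genes. The Wilson intervals of the 2 sets did not overlap for 4 to 7 and for 8 to 15 clusters. Across the 226 Zfp genes the number of clusters and the highest fold had a Spearman correlation of 0.66, a description of genes that share both libraries.

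**Figure D2:**
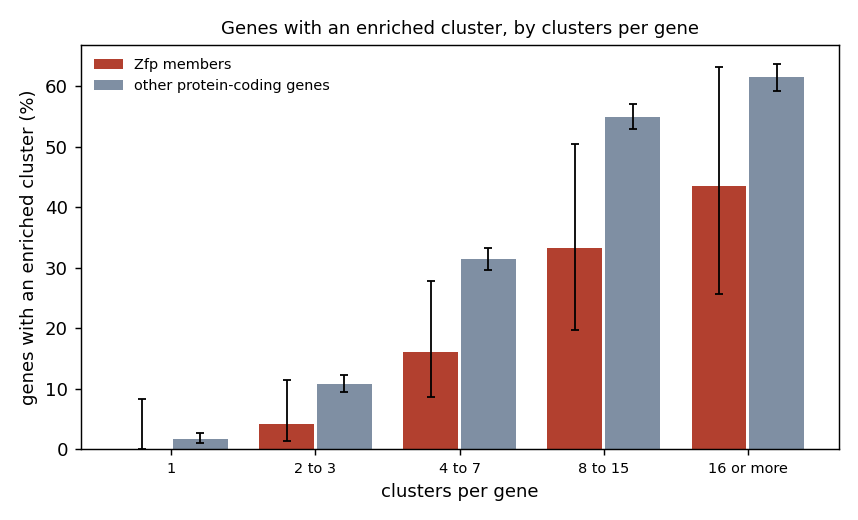
Share of genes with an enriched cluster (y axis, percent, from 0) by the number of clusters in the gene (x axis) for Zfp genes and other protein-coding genes, with Wilson 95% intervals. The Zfp share reaches 43.5% at 16 or more clusters, against 61.5% in other genes.

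The 226 genes held 1651 clusters, of which 102 were enriched (6.18%), against 13926 of 117981 in other protein-coding genes (11.8%); over both together the share called was 11.7%. The median fold of all clusters did not follow that order, at 0.98 in Zfp genes and 0.71 in the others, and clusters at or below 0 made up 23.0% and 26.8%. An enriched Zfp cluster held a median of 51.5 immunoprecipitate reads, against 63 in the 13709 of other genes with rebuilt counts. The median log2 folds of enriched clusters were 3.83 and 4.30. The 102 were unevenly spread: 15 genes had 1 each, Zfp106 and Zfp266 had 10 each, and 5 genes held 40.2% of them. No Zfp gene had all its clusters enriched.

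Zfp462 gave the highest value of the set. It encodes a large zinc finger protein whose human counterpart is a developmental disorder gene. Its top cluster, 1063 nt from the 3′ end of the locus, held 121 immunoprecipitate reads and 1 input read, a log2 fold of 5.89 (interval 3.39 to 11.21). Only 4 of its 78 clusters were enriched, and these 4 lay between 1063 and 1669 nt from the 3′ end. A deeper cluster 926 nt from the 3′ end, 388 reads against 26, had a fold of 2.88 with a −log10 p of 29.9 and so missed the fold threshold. Zfp609, a chromatin-associated factor needed for migration of cortical neurons in the mouse, had 8 of 55 clusters enriched. They fell in 2 stretches, 3 clusters between 1033 and 1321 nt and 5 between 3279 and 3748 nt from the 3′ end. Its highest fold was 5.45 (interval 2.94 to 10.77) from 89 reads against 1, and its deepest enriched cluster, 154 reads against 2, had 5.24 (interval 3.37 to 8.30).

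Zfp106 encodes an RNA-binding protein whose loss causes neuromuscular degeneration in mice. It had 10 of 19 clusters enriched over 1016 nt, the most enriched nucleotides of any Zfp gene. Of these, 8 lay between 2028 and 3209 nt from the 3′ end, with log2 folds between 3.50 and 5.61. Another 2, at 241 and 685 nt, had 4.56 and 3.56. The highest, 5.61 (interval 3.09 to 10.92), came from 99 reads against 1. Zfp266, a KRAB zinc finger gene, also had 10 of 19 clusters enriched, over 717 nt. Its folds were lower, 3.03 to 4.37, and its input deeper, up to 7 reads in an enriched cluster. Of its 10, 9 lay between 2220 and 3816 nt from the 3′ end and the other at 295 nt.

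Zfp664 held the best-counted Zfp site. A cluster 1104 nt from its 3′ end had 830 immunoprecipitate reads and 11 input reads, a log2 fold of 5.21 (interval 4.37 to 6.22) with a −log10 p of 83.9. That interval is narrower than those of the top-ranked clusters, which rest on 1 input read. The highest fold of the gene, with 4 of 10 clusters enriched, was 5.47 (interval 2.95 to 10.79) from 90 reads against 1. Zfp362 had 7 of 19 clusters enriched, all between 408 and 1370 nt from the 3′ end, and reached 5.62 (interval 3.11 to 10.94) from 100 reads against 1. Zfp60 had 4 of 6 enriched, all within 576 nt of the 3′ end, and reached 5.11 (interval 2.58 to 10.43) from 70 reads against 1.

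Zfp706, a small protein that represses Klf4 in mouse embryonic stem cells, had 6 of 7 clusters enriched, between 2685 and 3491 nt from the 3′ end. It reached 5.28 (interval 2.76 to 10.60) from 79 reads against 1, and its seventh cluster had 2.93. Zfp651, a BTB zinc finger gene also called Zbtb47, had 6 of 9 enriched between 2866 and 3723 nt, and reached 5.02 (interval 2.49 to 10.35) from 66 reads against 1. Zfp316 reached 5.22 (interval 2.70 to 10.55) with 3 of 7 clusters enriched. Zfp24, a SCAN-domain factor needed for myelination by oligodendrocytes in the mouse, reached 4.58 (interval 3.01 to 6.87) from 146 reads against 3, with 3 of 11 enriched between 3328 and 4027 nt. Zfp952 reached 4.47 (interval 1.92 to 9.80) with 1 of 6 enriched. The intervals of these 12 highest genes overlap, so their order is not resolved. A lower bound above 3 was found in 6 of the 102 enriched clusters, 1 each in Zfp106, Zfp24, Zfp362, Zfp462, Zfp609 and Zfp664.

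**Figure D3:**
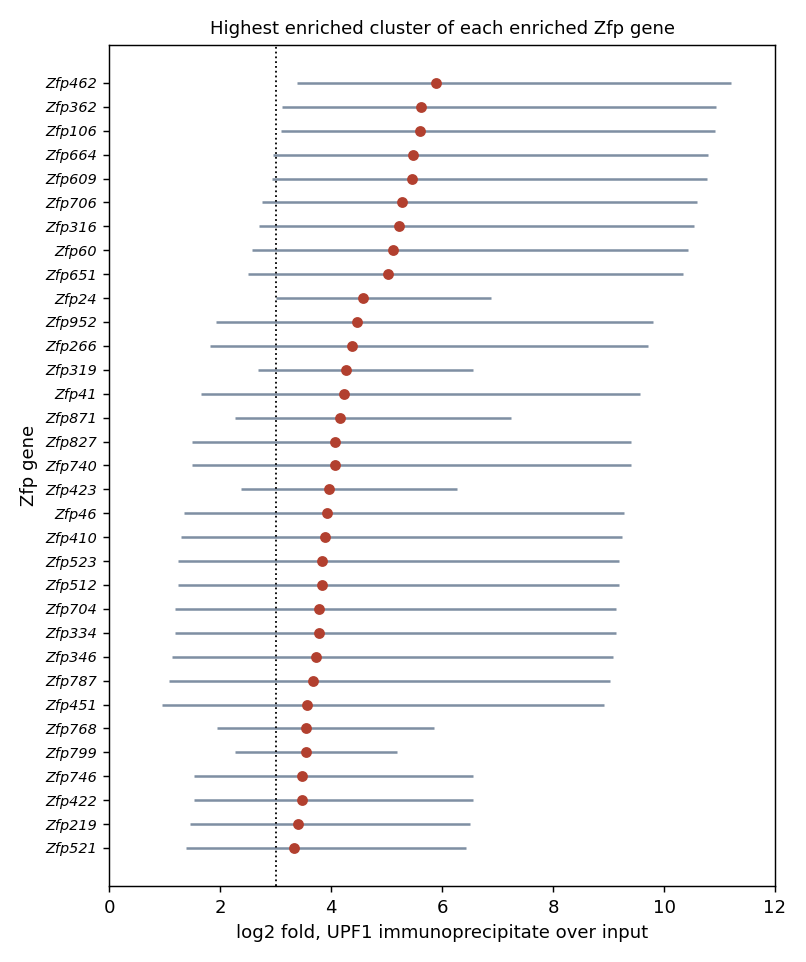
Highest enriched cluster of each of the 33 enriched Zfp genes, as the log2 fold of UPF1 immunoprecipitate over input (points, x axis) with the exact 95% counting interval (lines), and a dotted line at the threshold of 3. Points run from 5.89 in Zfp462 to 3.33 in Zfp521, and 23 of the 33 rest on 1 input read.

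At the threshold, the enriched genes with the lowest top fold were Zfp521 at 3.33 from 41 reads against 2, Zfp219 at 3.40 from 43 against 2, and Zfp422 at 3.47 from 45 against 2, tied with Zfp746. Just outside lay Zfp408, Zfp516, Zfp553 and Zfp592, each at 3.50 from 23 reads against 1, with a −log10 p of 2.79. In all, 19 Zfp genes reached a fold of 3 without an enriched cluster. Several large genes with many clusters had none enriched. Zfp608 had 59 clusters and a highest fold of 3.30 from 20 reads against 1, and Zfp148, a GC-box-binding factor, 53 clusters and 3.22 from 19 against 1. These folds rest on 1 input read each and their p missed the threshold. Zfp638, whose human counterpart silences unintegrated retroviral DNA, had 42 clusters and reached 2.30. Zfp644 had 35 and reached 2.44, and Zfp292 had 40 and reached 1.78. At the low end, Zfp277, Zfp655 and Zfp771 had 3 clusters each and none above 0.56.

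Position along the locus was the next question. Distances are genomic, introns included, from a cluster's midpoint to the outer 3′ end of the locus, and exons were not annotated. Enriched Zfp clusters lay toward the 3′ end, 86 of 102 within 5000 nt (84.3%, interval 76.0 to 90.1), against 12779 of 13926 in other genes (91.8%). This order turned when the −log10 p had to reach 5, with 94.2% in Zfp genes and 92.2% in other genes. Of Zfp clusters that were not enriched, 531 of 1549 lay that near (34.3%), against 23952 of 104055 in other genes (23.0%). Within those 5000 nt, 25 of the 180 Zfp genes with a cluster there were enriched (13.9%, interval 9.59 to 19.7), against 3047 of 8002 other genes (38.1%, interval 37.0 to 39.1). Of all clusters within 5000 nt, 34.4% were called.

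The sets differed most within 2000 nt of the 3′ end. In the last 1000 nt, 20 of 182 Zfp clusters were enriched (11.0%), against 5320 of 14631 in other genes (36.4%). Between 1000 and 2000 nt, 21 of 149 were (14.1%), against 3891 of 9572 (40.6%). Between 2000 and 5000 nt, 45 of 286 were (15.7%), against 3568 of 12528 (28.5%). In other genes the share was highest between 1000 and 2000 nt. In Zfp genes it was highest between 2000 and 5000 nt, but the Wilson intervals of the Zfp classes up to 5000 nt overlapped. Of the 45 enriched Zfp clusters there, 28 remained without Zfp106 and Zfp266, so the class with the highest Zfp share is not resolved. Between 5000 and 10000 nt, 10 of 196 Zfp clusters were enriched (5.10%), against 664 of 7943 in other genes (8.36%). Beyond 20000 nt, 3 of 630 were (0.476%), against 315 of 63453 (0.496%). The intervals of the 2 sets did not overlap in the 3 classes up to 5000 nt and overlapped in the 3 beyond, but they treat clusters of 1 gene as independent and are likely too narrow. Read depth, which also enters the fold, moved with this. Clusters of the last 1000 nt with rebuilt counts held a median of 7.5 immunoprecipitate reads in Zfp genes and 19 in other genes. Counts were rebuilt only for folds above 0. The part of read depth in the result was not tested.

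**Figure D4:**
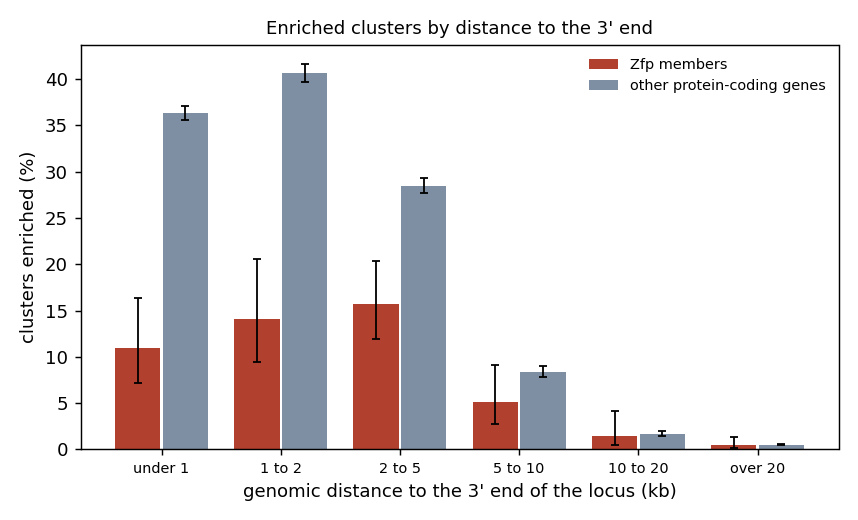
Share of clusters enriched (y axis, percent, from 0) by genomic distance to the 3′ end of the locus (x axis, kb) for Zfp genes and other protein-coding genes, with Wilson 95% intervals. In the last 1 kb the shares are 11.0% and 36.4%; beyond 20 kb they are 0.476% and 0.496%.

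Enriched Zfp clusters lay farther from the 3′ end, with a median distance of 2619 nt (quartiles 1149 and 3551) against 1351.5 nt in other genes (quartiles 665 and 2504). Of the 102, 45 lay between 2000 and 5000 nt (44.1%), against 25.6% of those in other genes, and 20 lay in the last 1000 nt (19.6%), against 38.2%. With the highest enriched cluster of each gene alone, the medians were 2305 nt in 33 Zfp genes and 1179.5 nt in 3260 others. The shares between 2000 and 5000 nt were then closer, 10 of 33 (30.3%) against 23.7%, and those in the last 1000 nt were 21.2% and 44.5%. Clusters of any kind were placed unevenly too. Of all clusters within 5000 nt, 286 of 617 in Zfp genes lay between 2000 and 5000 nt, against 12528 of 36731 in others. The part of this in the distances of enriched clusters was not tested. Without Zfp106 and Zfp266 the Zfp median was 2390.75 nt and the share between 2000 and 5000 nt was 34.1%. The 45 clusters at 2000 to 5000 nt came from 12 genes.

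**Figure D5:**
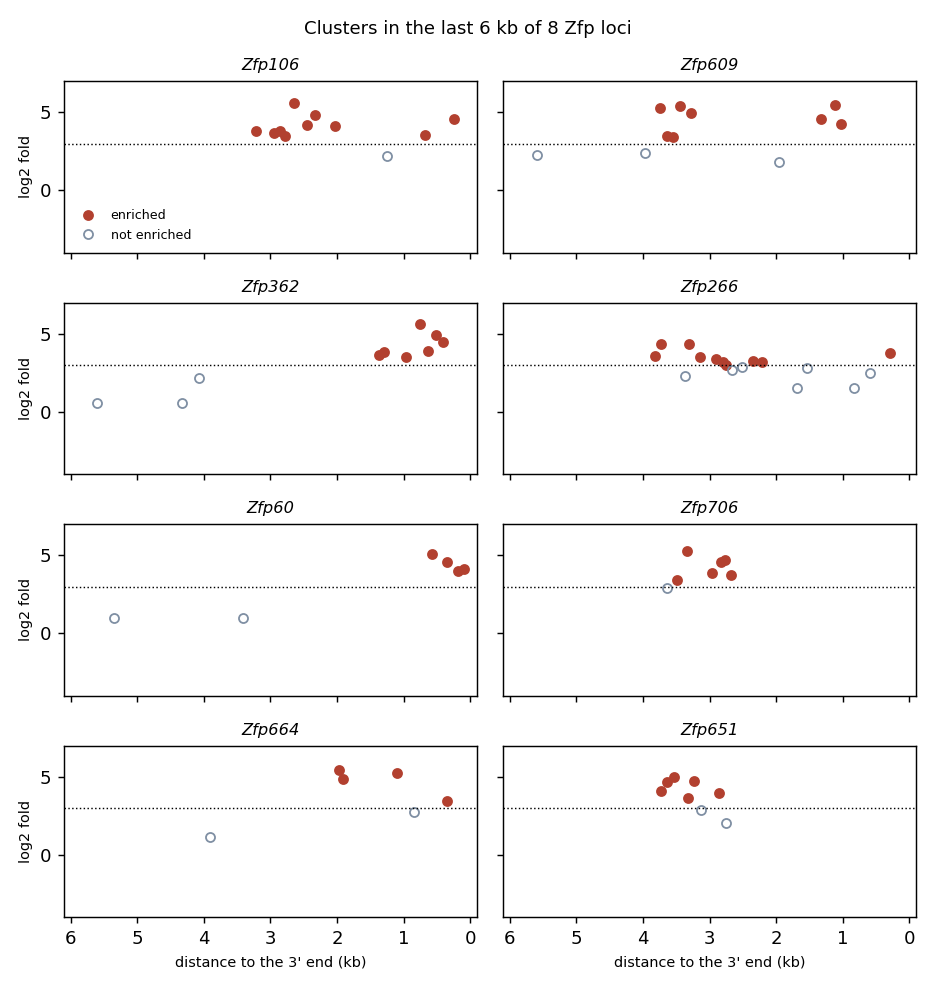
Every cluster in the last 6 kb of the 8 Zfp genes with the most enriched nucleotides, as log2 fold (y axis) against genomic distance to the 3′ end (x axis, kb, 3′ end at the right), with enriched clusters filled and a dotted line at 3. In Zfp60 and Zfp362 the filled points lie near the 3′ end, in Zfp706 and Zfp651 between 2685 and 3723 nt, and in Zfp609 in 2 separate stretches.

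Enriched clusters beyond 20000 nt were found in 3 Zfp genes. Zfp423, a partner of EBF factors needed for cerebellar development in the mouse, had 1 of 15 clusters enriched, and it lay at a 5′ end. It spanned bases 18 to 111 from an annotated start site at position 87959595 of chromosome 8 and 297721 nt from the 3′ end, and its first 30 bases are those printed above. It held 95 reads against 3, a log2 fold of 3.96 (interval 2.37 to 6.26). Zfp521, which promotes neural differentiation of mouse embryonic stem cells, had 1 of 53 clusters enriched, 234260 nt from the 3′ end. Zfp451, whose human counterpart is a SUMO ligase, had 1 of 17, at 38797 nt, with a fold of 3.56 from 24 reads against 1. All 3 clusters between 10000 and 20000 nt belonged to Zfp704, which had 5 of 69 enriched, between 9140 and 10632 nt from its 3′ end.

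By known role, 5 of the 10 Zfp genes with a cluster on a list of 12 fixed as neural or related regulators were enriched, with a median highest fold of 3.42. These were Zfp462, Zfp609, Zfp423, Zfp704 at 3.78 and Zfp521. The share enriched over all Zfp genes was 14.6% and over all protein-coding genes 34.8%. Zfp335, a microcephaly gene, had 6 clusters and reached 2.30, and Zfp516, a regulator of brown fat, had 31 clusters and 3.50. Zfp536 and Zfp703 had no cluster on their strand. The same shares, 14.6% and 34.8%, stand beside the lists that follow. Of 9 genes acting on RNA, translation or the spindle, 2 were enriched, with a median of 2.30. They were Zfp106 and Zfp346, which binds double-stranded RNA, with 1 of 8 clusters at 3.73 from 27 reads against 1. Zfp598, the ubiquitin ligase that senses collided ribosomes, had 4 clusters and reached 3.30 from 20 reads against 1, with a −log10 p of 2.38. The fold of Zfp598 passed its threshold and the p did not. Zfp207, a spindle assembly factor, had 18 clusters and reached 1.06 from 17 reads against 4. Zfp326, whose human counterpart couples transcription to splicing, had 22 clusters and reached 2.30. Zfp622, whose human counterpart acts in maturation of the large ribosomal subunit, reached 0.98.

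Of 8 Zfp genes linked to pluripotency, imprinting or retroelements 0 were enriched, a limit of 37.5% by 3 counts over the total, and their median highest fold was 1.14. That limit lies above the 14.6% of all Zfp genes, so the count does not set these genes apart. Of the 8, 0 had 16 or more clusters. Zfp281, a pluripotency factor, reached 2.88 from 15 reads against 1. Zfp445, which protects imprints, had 10 clusters and Zfp809, which silences retroviruses, 4, and both reached 2.30. Zfp57, another guardian of imprints, had 1 cluster at 0.56. Zfp42 and Zfp143 had no cluster on their strand. These lists are short, and they differ in clusters per gene. Of the 10 neural genes 8 had 16 or more clusters, a class in which 10 of 23 Zfp genes were enriched (43.5%). That class contains these 8 genes, so it is not a separate comparison, and no contrast is drawn from the neural count.

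Tandem position was compared next. Of 212 Zfp loci with another Zfp locus within 100000 nt, 115 had a cluster (54.2%, interval 47.5 to 60.8), against 111 of 154 loci with none that near (72.1%, interval 64.5 to 78.6). Among these, 11 of 115 neighboured genes were enriched (9.57%, interval 5.43 to 16.3), against 22 of 111 isolated ones (19.8%, interval 13.5 to 28.2). Their median highest folds were 1.56 and 2.15, with medians of 3 and 5 clusters per gene. Zfp316, Zfp60, Zfp24, Zfp952 and Zfp266 led the neighboured genes, and Zfp462, Zfp362, Zfp106, Zfp664 and Zfp609 the isolated ones. Chromosome 7, with 89 Zfp loci, had 54 with clusters and 3 enriched, Zfp60, Zfp787 and Zfp768. Chromosome 17 had 25 of 41 with clusters and 4 enriched, Zfp952, Zfp871, Zfp523 and Zfp799. Chromosome 13 had 15 of 32 and 1 enriched, Zfp346, and chromosome 15 had 6 of 10 and 3 enriched, Zfp706, Zfp41 and Zfp740. Over all Zfp genes with a cluster the share enriched was 14.6%, and over all protein-coding genes 34.8%. Counts per chromosome are small and without intervals, other chromosomes are not listed, and no contrast is drawn from them. Duplicated zinc finger genes can share sequence, so values of neighboured genes are uncertain where reads could be placed on more than 1 copy, and the part of this in the counts was not tested.

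Locus length differed between the sets, with medians of 19295.5 nt in Zfp genes and 30023 nt in others. Among loci over 10000 and up to 20000 nt, 9 of 87 Zfp genes were enriched (10.3%), against 582 of 1659 others (35.1%). Over 20000 and up to 50000 nt, 12 of 79 were (15.2%), against 1015 of 2666 (38.1%). The gap between the sets was smaller in the longest loci, where Zfp genes had the more clusters, a median of 19 against 13. From 10000 to 20000 nt these medians were 3 and 5, and from 20000 to 50000 nt 5 and 7. Over 50000 nt, 8 of 27 Zfp genes were enriched (29.6%), against 1187 of 3197 others (37.1%). At up to 10000 nt the counts were 4 of 33 (12.1%) and 479 of 1733 (27.6%). The Zfp share was the lower in each of these 4 length classes. No intervals were set on these shares, and the classes up to 10000 nt and over 50000 nt held only 33 and 27 Zfp genes, so their gaps are uncertain.

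Zinc finger genes with other symbols were counted beside the 14.6% of the Zfp genes. Across the listed families, 16 of 88 genes with a cluster were enriched (18.2%, interval 11.5 to 27.5), with a median highest fold of 2.30. That interval holds the Zfp share and lies below the 34.8% of all protein-coding genes, so a low share was not particular to the Zfp genes. The families differed in count: 4 of 32 Zbtb genes were enriched, 1 of 6 Zkscan, none of 8 Zscan, 1 of 8 Prdm, none of 4 Egr, 5 of 10 Klf, 2 of 6 Sp and both Zeb genes. In the smaller families 1 of 3 Sall genes was enriched, and none of 3 Zic, 2 Gli, 2 Ikzf and 2 Bcl11 genes. Zeb1, a repressor of epithelial genes, reached 6.32, and Prdm16, a regulator of neural stem cells, 5.86 with 15 of 80 clusters enriched. Klf12 reached 5.50 and Sall2 4.50.

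The proteins that KRAB zinc fingers recruit were listed as well. Of 23 such genes 21 had a cluster and 7 were enriched (33.3%, interval 17.2 to 54.6), near the 34.8% of all protein-coding genes and therefore no result about the list. Its median highest fold was 2.30, and the values of single genes follow as a description. Cbx1, which encodes the heterochromatin protein HP1 beta, reached 5.65 (interval 3.14 to 10.97) with 5 of 7 clusters enriched. Chd4, the helicase of the NuRD complex, reached 5.44 (interval 3.57 to 8.50) with 6 of 31. Its NuRD partners Mta2, Rbbp4 and Mta1 reached 4.95, 4.53 and 3.93. Smarcad1 reached 3.93 and Cbx5, HP1 alpha, 3.86. Zfp410, the activator of Chd4 in mouse and human cells, had 1 of 7 clusters enriched, at 3.88 from 30 reads against 1. Trim28, the shared corepressor, had 2 clusters and reached 0.56. The methyltransferase gene Setdb1 had 6 clusters and reached 1.78, and Hdac1 and Hdac2 both reached 1.30.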

How the data were processed

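A UPF1 immunoprecipitate and its input (1 library each) were compared through the immunoprecipitate's cluster list, which has no header. The log2 fold and the −log10 p of each cluster are the authors' deposited values, with units taken from the values: the −log10 p runs from 0 to a cap of 400 and is 0 at every fold at or below 0. Per the submitters' processing notes, STAR, cutadapt and UMI-tools were used with build mm10. The cluster caller is not stated, and the fold's formula is not given in the sources used here.

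A cluster went to each protein-coding RefSeq locus (GRCm38.p6) on its strand that held over 50% of its bases. Strands came from the RefSeq start-site table (197 members), or from at least 80% of 2 or more clusters in no other locus (29 members). This inference matched RefSeq in 99.8% of 6587 loci. Because it needs 2 or more clusters, it leaves out loci with 1. Of the 29 members 9 were enriched, against 24 of the 197 (12.2%). Read counts were rebuilt by taking the commonest fold as 3 reads against 1 and the smallest counts whose exact binomial (under 5 reads on either side) or continuity-corrected chi-square p came within 0.05 or 1% of the deposited −log10 p. An input count of 1 may stand for none. Tested on 373 simulated pairs of counts, 99.2% were recovered. The pairs were simulated with the same depth ratio and p formulas, so this checks the search for counts and not those settings. Python 3.11.15 and scipy 1.17.1 were used.

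Members and lists were chosen with earlier results of these data known. Genes named are the 12 with the highest enriched fold, 8 with most enriched nucleotides, 5 with most clusters and none enriched, 3 just inside and 3 just outside the thresholds (genes tied with these are named too), 3 lowest with 3 or more clusters, and the enriched genes of the role lists; the others were chosen after their values were seen. A planned split by KRAB box was not made because protein sequences were not used here.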

Additional observations from a re-analysis of the deposited data

Results flagged for a closer look

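Zfp397 lay outside the comparisons because the strand of its locus was not resolved. All 9 clusters on it were on the plus strand, 1 was enriched, and the highest log2 fold was 3.56. Of the 21 clusters on the 10 Zfp loci of unresolved strand, this was the sole enriched one.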

How the results depend on the processing

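Of 20 alternative values for 5 results, 16 stayed near the main value, which means within 1.5 times for a count and within the 95% interval for a share or median. The count of enriched Zfp genes was 33 and ranged from 22 without calls at an input count of 1 to 35 with a fold threshold of 2, where 22.2% and 37.0% of all protein-coding genes were called; the share in other genes was the higher under each alternative. The 102 enriched clusters became 52 without calls at an input count of 1, and 64 when loci whose strand came from clusters were left out, which removes 29 genes, among them Zfp462, Zfp362 and Zfp609. The median highest fold of 1.78 became 2.30 (3.06 in other genes) with at least 3 clusters per gene. The share of enriched clusters within 5000 nt of the 3′ end moved from 84.3% to 94.2% with a −log10 p of at least 5, against 92.2% in other genes, so that contrast between the sets turned; the cause was not tested. Zfp827 was not called from clusters in a single locus. Zfp316, Zfp952, Zfp41, Zfp346, Zfp410 and Zfp451 were among 11 genes not called without an input count of 1, and Zfp521 and Zfp704 among 10 lost when the −log10 p had to reach 5. The alternatives on strand source and on distance medians were chosen after seeing the data. The KRAB alternative was not run. No paired analysis was possible because there was 1 library of each kind. Most folds rest on 1 or 2 input reads, which limits their precision.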

Other observations

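On the opposite strand of Zfp loci, outside any other annotated locus, 5 clusters were found and none was enriched. Of these, 3 lay in Zfp335, with a highest log2 fold of 3.50 that missed the p threshold, and 2 in Zfp142, with a highest of 1.98.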
